A study of Mus musculus with 16 samples.

Results

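The Slc25 genes encode the mitochondrial carrier family, whose transcripts were counted here in the cortex of 2 mouse lines with a changed Aifm1 gene. Members were taken as every row of the count table whose Ensembl ID is a protein-coding gene with a symbol of the form Slc25a and a number. This gave 47 genes of 55573 rows, and all 47 of the annotation were in the table. The pseudogene Slc25a5-ps does not meet the rule and was left out. Each of 4 groups held 4 libraries from untreated cortices at about postnatal day 180. Aifm1-KI mice carry a knock-in allele without arginine 200 of Aifm1 (R200 del), and Aifm1-WT are their wild-type littermates. Hq-mut mice carry the Harlequin allele of Aifm1, and Hq-WT are their wild-type littermates. The labels name the Hq stock B6CBACa Aw-J/A-Aifm1Hq/J and give the strain of every sample, Hq libraries included, as C57BL/6. Both alleles are constitutive, so every cell type of the cortex carries them, and libraries of whole cortex cannot tell fewer cells of a type from less RNA per cell. The labels give separate samples with replicate numbers 1 to 4 and do not say that each is 1 animal, so a p-value speaks of library-to-library spread, which may be technical.

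Mitochondrial carriers are small proteins of the inner mitochondrial membrane built from repeats of a shared fold, and each moves a set of metabolites between the cytosol and the matrix. They bring in phosphate and ADP and export ATP, shuttle aspartate, glutamate and malate so that cytosolic NADH can be used by the respiratory chain, and import cofactors, nucleotides and iron. In brain the aspartate/glutamate carrier Slc25a12 (aralar) is the main neuronal member of the malate-aspartate shuttle, and Slc25a4 is the main adenine nucleotide translocase of postmitotic, highly respiring tissue. Apoptosis-inducing factor, the product of Aifm1, is an intermembrane-space flavoprotein on which respiratory chain assembly depends.

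Slc25a5, the adenine nucleotide translocase of proliferating cells, has processed pseudogenes across the genome, and the reads were 51 bases long. The following sequences show why its counts, and not those of its paralog, are uncertain: they are bases 270 to 320 of the 2 coding sequences, read from the GENCODE M21 transcripts on GRCm38, and capitals mark the 13 bases that differ between them. Slc25a5 lies here at chrX:36797001-36797051 on the plus strand and Slc25a4 at chr8:46209300-46209350 on the minus strand, each in exon 2.
Slc25a5: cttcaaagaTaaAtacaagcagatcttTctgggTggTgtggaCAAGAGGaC
Slc25a4: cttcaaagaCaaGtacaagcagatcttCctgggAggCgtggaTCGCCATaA
The 2 coding sequences are 894 bases each and share 692 of them (77.4%), yet none of the 844 windows of 51 bases of Slc25a5 occurs in Slc25a4. The Slc25a5 window printed here occurs unchanged in 5 other genes, all pseudogenes. In all, 528 of the 844 coding windows (62.6%) and 33.0% of all transcript windows of Slc25a5 occur in 9 pseudogenes. A read from such a window has more than 1 equal place in the genome, so the level of Slc25a5 is a lower estimate if reads with several places were not counted. The pseudogene with the most counts, Gm5560, had 33 to 164 counts per library against 503 to 2221 for Slc25a5.

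By matches to annotated transcripts on the same strand, the other carriers were less affected by copies. No window was shared with a transcript on the same strand for 32 of the 47 members, and only 4 shared more than 5% of their windows. Besides Slc25a5 these were Slc25a37 with 6.97%, Slc25a36 with 6.64% and Slc25a20 with 5.47%. Matches to the opposite strand and copies outside annotated transcripts are not counted here, so more windows may have copies in the genome. Exon bases overlap a gene on the opposite strand for 12 members, the most for Slc25a35, where Rangrf covers 31.3% of the exon bases. The strand setting of the counting is not given in the sources used here, so reads of such pairs cannot be told apart. The next overlaps by share were Slc25a33 with Gm13068 (14.9%) and Slc25a11 with Rnf167 (8.91%).

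Library totals ran from 10671580 to 32551594 counts. Aifm1 was at 3.32 ± 0.79 CPM (SD, n = 4) in Hq-mut and 23.9 ± 1.2 CPM (SD, n = 4) in Hq-WT, where CPM are counts scaled to a common library size with TMM factors over the 16 libraries. Its mean was 23.7 ± 1.84 CPM in the Aifm1-KI group and 22.7 ± 0.81 CPM in the Aifm1-WT group (SD, n = 4 each), which does not check the labels, since the knock-in removes a single codon. Markers of excitatory neurons summed to 4275 to 6082 CPM over the 16 libraries. Several libraries stood apart. All 10 striatal markers were found, none at 0 in any library, and summed to 641 CPM in Aifm1-KI 2, 591 CPM in Aifm1-KI 4 and 856 CPM in Hq-mut 3, against 227 to 367 CPM in the other 13. The 9 liver genes other than Ttr summed to 252 and 287 CPM in Aifm1-WT 1 and 2 and to 1.41 to 29.3 CPM elsewhere. Choroid plexus markers summed to 193 CPM in Aifm1-KI 2 and 146 CPM in Hq-WT 2 against 3.04 to 52.6 CPM in the rest. Oligodendrocyte markers ranged from 1572 to 4902 CPM. The Hq-mut and Hq-WT libraries numbered 2 shared a pattern described with the Hq comparison.

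As a family, the carriers took 0.265% to 0.341% of all counts of a library. Levels are compared between genes as CPM per kilobase of exon. On this scale Slc25a4 led with 227.4 ± 44.6 (SD over 16 libraries) and made up 27.3% to 35.4% of the family's sum per library. Slc25a23 followed at 84.5, Slc25a3 at 52.5, Slc25a11 at 32.7 and Slc25a5 at 32.0. These 5 genes made up 54.7% to 61.4% of the family's sum. The order Slc25a4, Slc25a23, Slc25a3, Slc25a11 held in 16 of 16 libraries. Below it many neighbours were not separated: Slc25a11 was above Slc25a5 in 11 libraries, Slc25a5 above Slc25a44 in 9, Slc25a22 above Slc25a18 in 9 and Slc25a27 above Slc25a51 in 7. Among the carriers ranked down to Slc25a33, larger steps lay between Slc25a18 and Slc25a46 (1.29-fold, 14 libraries) and between Slc25a39 and Slc25a33 (1.30-fold, 16 libraries). With the longest transcript as length, Slc25a5 (42.4) stood above Slc25a11 (40.5).

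**Figure D1:**
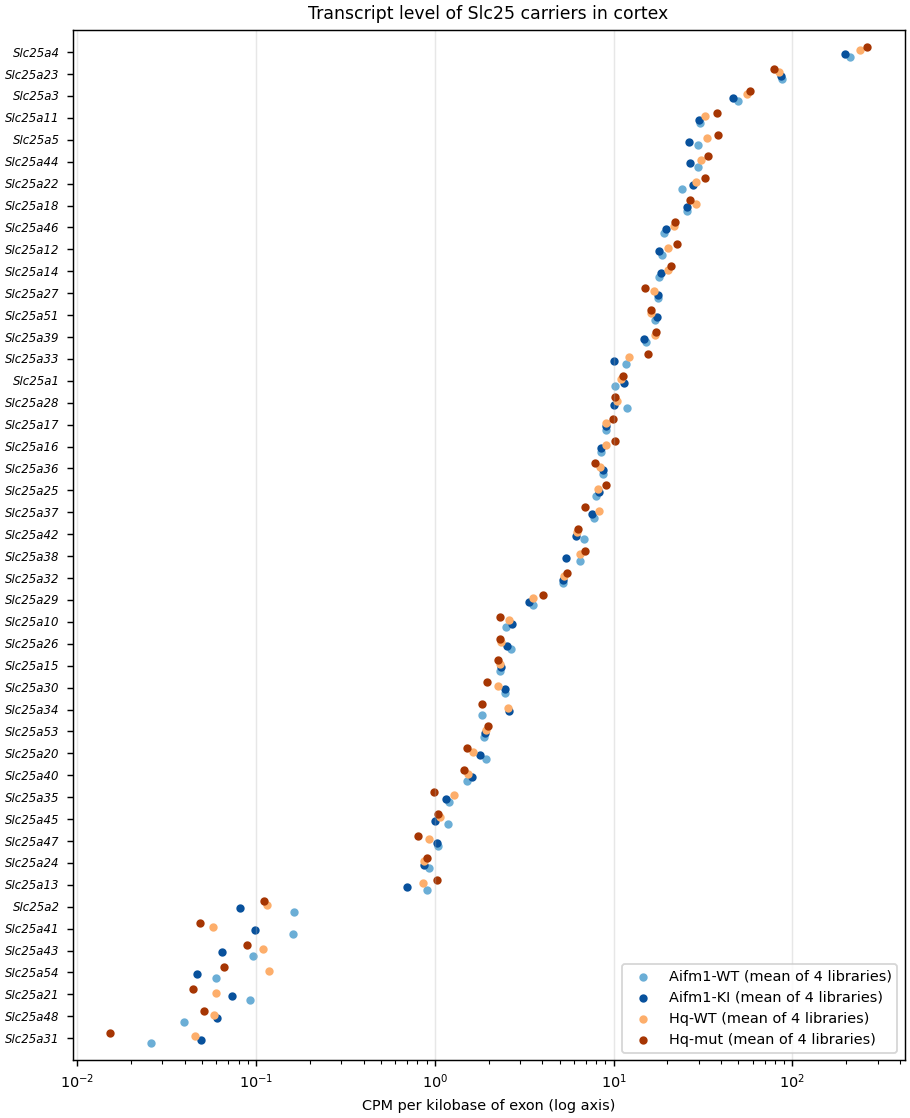
Mean level of 46 Slc25 genes in CPM per kilobase of exon on a log axis, 1 point per group of 4 libraries. Slc25a4 stands alone at the top, and over all 16 libraries 39 of them have means from 0.874 to 227.4 while the other 7 reach at most 0.118.

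Of the 10 carriers of adenine nucleotides and phosphate, 8 had a mean above 1 CPM. Slc25a4 was at 461, 454, 496 and 449.8 CPM in Aifm1-KI 1 to 4 and at 523, 470.1, 462 and 535 CPM in Aifm1-WT 1 to 4. In the Hq line it was at 536, 861, 523 and 535 CPM in Hq-mut and 527, 699.8, 504 and 525 CPM in Hq-WT. The 2 libraries numbered 2 were the highest of the 16 and the groups overlapped in both lines. Slc25a23, a calcium-regulated ATP-Mg/phosphate carrier, lay between 389 and 493 CPM over the 16 libraries, a coefficient of variation of 5.98% against 19.6% for Slc25a4. That of Slc25a4 was 11.9% without Hq-mut 2 and 6.73% without both libraries numbered 2, against 5.96% for Slc25a23. Slc25a3, which brings phosphate (and copper) into the matrix, was at 242 to 439 CPM and was again highest in Hq-mut 2 and Hq-WT 2. Slc25a25, another ATP-Mg/phosphate carrier, had a mean of 66.1 CPM. Slc25a42, the coenzyme A carrier, Slc25a17, a carrier of peroxisomes, and Slc25a24 completed the detected members. The testis translocase Slc25a31 was listed at 0 in 6 libraries and had at most 4 counts, and Slc25a41 was at 0 in 2 and had at most 7.

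Of the 12 carriers of amino acids and glutathione, Slc25a22, a glutamate carrier, had the most counts with a mean of 169.7 CPM, followed by Slc25a12 with 145.6 CPM. Per kilobase the order was Slc25a44 (30.3), Slc25a22 (28.3), Slc25a18 (26.8) and Slc25a12 (19.8), the first of which are neighbours that were not separated. With the longest transcript as length, Slc25a22 (30.4) stood above Slc25a44 (30.3), and Slc25a39 (26.3) above Slc25a12 (22.9). Slc25a12 lay between 122 and 192 CPM in all 16 libraries. Its paralog Slc25a13 (citrin), the aspartate/glutamate carrier of liver, had a mean of 3.32 CPM. Slc25a44, a carrier of branched-chain amino acids, was at 108.4 CPM and the second glutamate carrier Slc25a18, known from astrocytes, at 51.2 CPM. The ornithine carriers differed: Slc25a15 had 12.99 CPM and Slc25a2 0.161 CPM, with no more than 7 counts in any library. The remaining members of this group, the glycine carrier Slc25a38, the glutathione carriers Slc25a39 and Slc25a40, the basic amino acid carrier Slc25a29 and the S-adenosylmethionine carrier Slc25a26, had means of 9.44 to 44.3 CPM.

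Among the 5 carriers of carboxylates and acylcarnitine, the oxoglutarate/malate carrier Slc25a11 of the malate-aspartate shuttle had a mean of 69.2 CPM, the citrate carrier Slc25a1 23.9 CPM, the dicarboxylate carrier Slc25a10 8.78 CPM and the carnitine/acylcarnitine carrier Slc25a20 8.30 CPM. The oxodicarboxylate carrier Slc25a21 had 0.330 CPM. All 6 carriers of nucleotides and cofactors were detected. The most counts fell on the NAD carrier Slc25a51 (92.7 CPM), the pyrimidine nucleotide carrier Slc25a36 (80.9 CPM), Slc25a16 (43.6 CPM) and the folate and FAD carrier Slc25a32 (32.2 CPM). Per kilobase Slc25a51 was again the highest (16.8), Slc25a33 came second (12.4), ahead of Slc25a16 (9.09) and Slc25a36 (8.44), and Slc25a32 was the lowest of the 6 (5.30). The order between depended on the length used. With that of the longest transcript, Slc25a36 (15.5) and Slc25a16 (13.9) stood above Slc25a33 (12.4). Slc25a32 had the lowest coefficient of variation of the 40 carriers tested below, 4.54% over the 16 libraries.

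The iron importers were both present, Slc25a37 (the mitoferrin best known from erythroid cells) with 46.1 CPM and Slc25a28 (the mitoferrin of most tissues) with 39.8 CPM. Per kilobase the order was the other way, 7.66 for Slc25a37 and 10.6 for Slc25a28. The brain members that resemble uncoupling proteins were Slc25a27 with 66.3 CPM, Slc25a14 with 45.9 CPM and Slc25a30 with 10.5 CPM, or per kilobase 16.8, 19.4 and 2.29. Slc25a46, a member placed in the outer membrane with a role in mitochondrial shape, had 112.3 CPM. Of the 8 members without an assigned group, Slc25a53 had 15.3 CPM, Slc25a34 5.91 CPM, Slc25a35 4.26 CPM and Slc25a45 2.97 CPM. Slc25a43, Slc25a48 and Slc25a54 had means of 0.129 to 0.177 CPM. A count of 0 allows up to 0.0876 to 0.277 CPM depending on the library (3 counts), so these are at or under the limit in many libraries. These limits cover counting error only. Slc25a47, a carrier known from liver and named here after its values were seen, was at 3.42 and 3.55 CPM in Aifm1-WT 1 and 2, where the liver genes were high, and at 1.67 to 3.42 CPM in the other 14.

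In the knock-in line no carrier was called between Aifm1-KI and Aifm1-WT at an adjusted p under 0.05 (edgeR's quasi-likelihood test, Benjamini-Hochberg over all 18383 genes tested), where 0% of all genes were called. The filter on low counts kept 40 carriers, and Slc25a2, Slc25a21, Slc25a31, Slc25a41, Slc25a43, Slc25a48 and Slc25a54 were not tested. DESeq2 and limma-voom called 0 carriers as well. At an unadjusted p under 0.05 there were 4 of 40 carriers, against 11.4% of all genes tested. This number was 8 (of 41 tested) without Aifm1-KI 3, 2 without Aifm1-KI 4, 0 without Aifm1-KI 2 and 4 and 1 with the striatal marker level in the fit. Over all genes it moved as well, from 2094 of 18383 to 3860 of 18871 without Aifm1-KI 3. It was 1399 of 18619 without Aifm1-KI 4, 1167 of 18838 without Aifm1-KI 2 and 4 and 1091 of 18383 with the marker level. Higher in Aifm1-KI were 19 carriers and lower 21, with a median log2 fold change of -0.0016 against 0.0055 over all genes. The 95% interval of the fold change lay within 1.5-fold either way for 38 of 40 carriers, and for 66.4% of all genes. These shares were not matched for expression level. The exceptions among the carriers were Slc25a13 and Slc25a34, which have low counts or large spread.

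The carrier with the smallest p was Slc25a38, which supplies mitochondria with glycine for heme synthesis (ENSMUSG00000032519, GRCm38 chromosome 9, 120110374 to 120124504, plus strand). It was at 15.6, 14.5, 15.3 and 14.6 CPM in Aifm1-KI 1 to 4 and 16.5, 18.2, 18.0 and 18.2 CPM in Aifm1-WT 1 to 4. Every knock-in library was below every wild type, as the single carrier of 40 whose groups did not overlap, while 4.87% of all genes did not overlap and 2.83% did so with the knock-in lower. The log2 fold change was -0.23 (SE 0.07, 95% interval -0.38 to -0.08, adjusted p = 0.368). Without Aifm1-KI 2 and 4, the libraries with high striatal markers, it was -0.19 (SE 0.09). Several other marker lists were lower in Aifm1-KI: 6 of 6 oligodendrocyte markers (median log2 fold change -0.40), 6 of 6 endothelial markers (-0.31), 6 of 6 markers of excitatory neurons (-0.18) and 4 of 5 blood markers (-0.32). Endothelial markers summed to 126 to 147 CPM in Aifm1-KI and 143 to 193 CPM in Aifm1-WT, and blood markers to 32.1 to 66.4 and 49.2 to 74.2 CPM. Oligodendrocyte markers summed to 1572 to 3454 and 2906 to 3941 CPM, and those of excitatory neurons to 4275 to 5352 and 5101 to 5561 CPM. Each sum overlapped between the groups, none of these markers was at 0 in any library or called, and their part in the carriers' values was not tested. In the same fit 6 of 6 microglial markers (-0.07), 8 of 9 liver markers tested (-3.81) and 4 of 7 astrocyte markers (-0.02) were also lower. Higher were 10 of 10 striatal markers (1.11), 6 of 6 choroid plexus markers tested (1.51) and 4 of 6 markers of inhibitory neurons (0.04). The part of these lists was not tested either.

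Slc25a22 was at 161, 175, 152 and 181 CPM in Aifm1-KI 1 to 4 and 145, 152, 128 and 155 CPM in Aifm1-WT 1 to 4. The knock-in values were the higher ones on average and the groups overlapped, with a log2 fold change of 0.22 (SE 0.08, 95% interval 0.05 to 0.39, adjusted p = 0.375). The 2 highest values came from Aifm1-KI 2 and 4, and without them the log2 fold change was 0.12 (SE 0.08). Slc25a28 was at 36.9, 34.2, 41.4 and 37.6 CPM in Aifm1-KI and 39.2, 45.3, 47.9 and 45.5 CPM in Aifm1-WT, with a log2 fold change of -0.24 (SE 0.08, adjusted p = 0.379). Only Aifm1-KI 3 and Aifm1-WT 1 overlapped. With the striatal marker level added to the fit the value of Slc25a28 was -0.11 (SE 0.11), and that of Slc25a22 0.06 (SE 0.09).

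Slc25a13 was at 2.22, 2.75, 3.19 and 2.53 CPM in Aifm1-KI and 4.04, 3.43, 3.11 and 3.11 CPM in Aifm1-WT. The groups overlapped, through Aifm1-KI 3, and the log2 fold change was -0.36 (SE 0.15, adjusted p = 0.430). Its highest value in the line came from Aifm1-WT 1, and without Aifm1-WT 1 and 2 the log2 fold change was -0.22 (SE 0.19).

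The largest estimate in the knock-in line belonged to Slc25a34 (ENSMUSG00000040740, GRCm38 chromosome 4, 141618824 to 141623821, minus strand) and rested on 2 libraries. It was at 9.84 CPM in Aifm1-KI 2 and 9.20 CPM in Aifm1-KI 4, and at 4.36 to 5.94 CPM in the other 6 libraries of the line. The log2 fold change was 0.56 (SE 0.27, 95% interval -0.05 to 1.16, adjusted p = 0.468). Those 2 libraries had the high striatal markers. Without them the log2 fold change was -0.12 (SE 0.17), and with the striatal marker level added to the fit it was -0.38 (SE 0.26). The direction thus turned in 2 of 16 alternative fits. Leaving out these 2 libraries also removes the 2 highest values of the gene, and Aifm1-KI 2 had high choroid plexus markers as well (193 CPM). The striatal marker list moved with this gene in the knock-in line, and its part in the value was not tested.

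**Figure D2:**
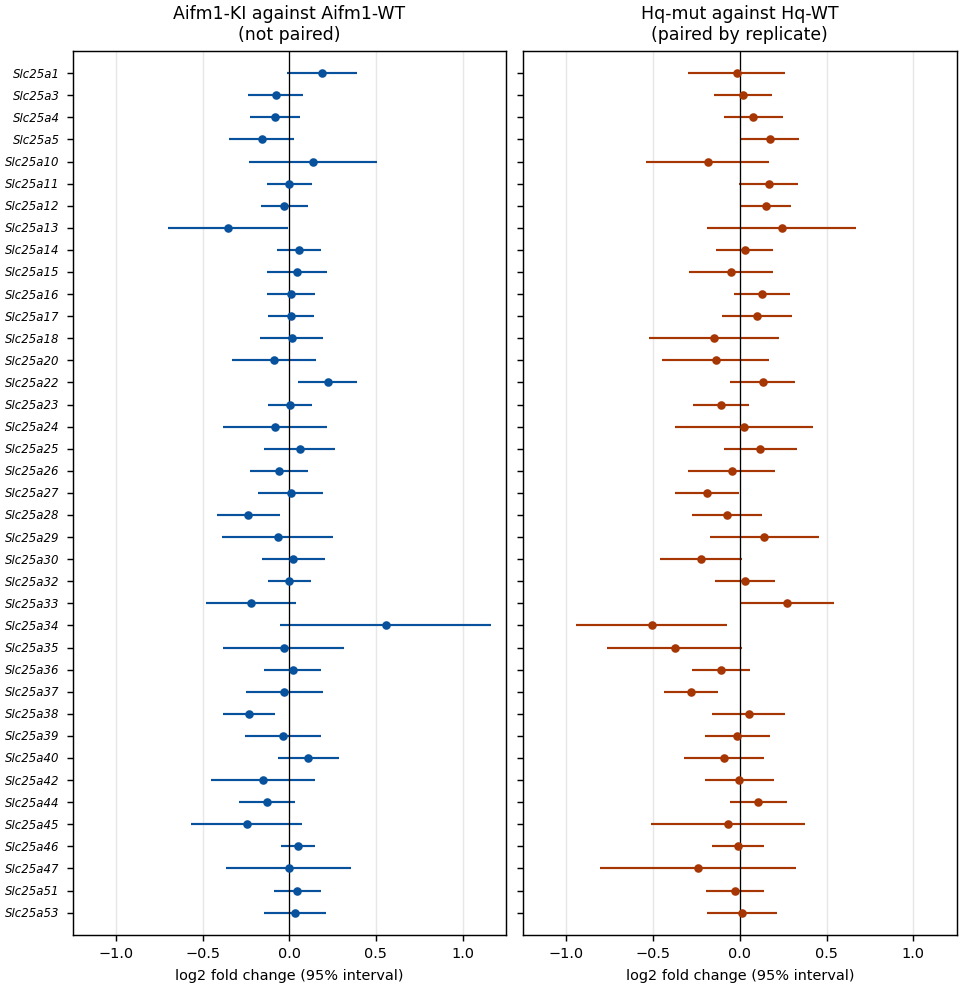
Log2 fold change of 39 Slc25 genes tested in each mutant line, with its 95% interval (lines), from edgeR's quasi-likelihood fits. In both panels the points lie close to 0, and Slc25a34 has the estimate farthest from 0, 0.56 in Aifm1-KI and -0.51 in Hq-mut.

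By role, the knock-in line gave 0 called genes in every group. Of the 8 adenine nucleotide and phosphate carriers tested, 3 were higher and 5 lower, with a median log2 fold change of -0.08. Of the 11 amino acid and glutathione carriers, 4 were higher and 7 lower (median -0.04). Both iron importers were lower (median -0.13), and all 3 uncoupling-protein-like genes were higher by small amounts (median 0.02). The 4 carboxylate and acylcarnitine carriers were divided evenly, and 4 of the 6 nucleotide and cofactor carriers were higher (median 0.0052). These medians are small, and leaving out 1 library turned some of them: 1 of the 3 uncoupling-protein-like genes was higher without Aifm1-KI 1 (median -0.02), and 1 to 4 of the 6 nucleotide and cofactor carriers were higher (medians -0.03 to 0.01). Of the iron importers 1 was higher and 1 lower without Aifm1-KI 1 (-0.11), without Aifm1-KI 2 (-0.09) and with the striatal marker level in the fit (-0.0046). Without Aifm1-KI 3, 2 of 5 carboxylate and acylcarnitine carriers tested were higher (median -0.04).

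In the Harlequin line the libraries were paired by replicate number, and the fit keeps the pair as a block. The labels do not say that the numbers mark pairs, and the check of the pairing came from these same data. No carrier was called, against 0.0167% of the 17969 genes tested. DESeq2 and limma-voom, in the same paired design, called 0 carriers as well. At an unadjusted p under 0.05 there were 6 of 40 carriers, against 7.97% of all genes. Higher in Hq-mut were 19 and lower 21, with a median log2 fold change of -0.0067 against 0.0060 over all genes. The 95% interval lay within 1.5-fold either way for 36 of 40 carriers and 69.1% of all genes, shares that were not matched for expression level. Aifm1 itself changed by a log2 fold change of -2.89 in the same fit (SE 0.17, adjusted p = 0.00101).

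Slc25a37, an importer of iron into the matrix (ENSMUSG00000034248, GRCm38 chromosome 14, 69241848 to 69285112, minus strand), had the smallest p. It was at 38.5, 36.2, 46.3 and 46.1 CPM in Hq-mut 1 to 4 and 45.9, 43.6, 58.1 and 52.4 CPM in Hq-WT 1 to 4. The groups overlapped, while within each of the 4 pairs the mutant was the lower. The log2 fold change was -0.28 (SE 0.07, 95% interval -0.44 to -0.13, adjusted p = 0.523). Without the pair numbered 2 it was -0.27 (SE 0.06). Blood markers were lower in the same comparison, 5 of 5 (median on the log2 scale -0.50), the smallest p being that of the hemoglobin gene Hba-a2 (-0.87, adjusted p = 0.410). All 5 were found, none at 0, and summed to 39.7, 87.9, 39.5 and 25.5 CPM in Hq-mut 1 to 4 and 56.1, 69.7, 86.1 and 40.1 CPM in Hq-WT 1 to 4. In the pair numbered 2 the blood sum was the higher one in the mutant while Slc25a37 was the lower. Endothelial markers were lower for 4 of 6 (median -0.15), choroid plexus markers for 6 of 6 tested (-1.73) and liver markers for 2 of 3 tested (-0.41). Astrocyte markers were lower for 5 of 7 (-0.04) and microglial markers for 3 of 6 (-0.02). Other lists were higher: 10 of 10 striatal markers (0.74), 6 of 6 oligodendrocyte markers (0.30), 5 of 6 markers of excitatory neurons (0.15) and 4 of 6 of inhibitory neurons (0.04). No marker of these lists was called. The part of any of these lists in the value of Slc25a37 was not tested. Carriers lower in 4 of 4 pairs were Slc25a37, Slc25a34 and Slc25a30, 3 of 40, against 6.88% of all genes.

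Slc25a34, whose substrate is unassigned here, was at 4.02, 5.80, 3.96 and 5.83 CPM in Hq-mut and 7.13, 5.86, 8.04 and 6.46 CPM in Hq-WT. Every mutant library was below every wild type, the single such carrier of 40, while 1.58% of all genes did not overlap and 0.723% did so with the mutant lower. The gap was narrow, 5.83 against 5.86 CPM. The log2 fold change was -0.51 (SE 0.19, 95% interval -0.94 to -0.07, adjusted p = 0.591). With the striatal marker level added to the fit it was -0.24 (SE 0.20). Hq-mut 3, which had the high striatal markers of this line, was the lowest library for this gene, whereas the knock-in libraries with high markers were the highest.

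The next carriers by p differed in direction. Slc25a5 was at 52.0, 88.2, 57.4 and 56.3 CPM in Hq-mut and 47.8, 72.2, 46.5 and 53.0 CPM in Hq-WT, higher in 4 of 4 pairs, with a log2 fold change of 0.18 (SE 0.07, adjusted p = 0.623). Slc25a12 was at 162, 192, 147 and 164 CPM in Hq-mut and 145, 171, 135 and 138 CPM in Hq-WT, higher in 4 of 4 pairs, with a log2 fold change of 0.15 (SE 0.06, adjusted p = 0.623). Slc25a27 was at 55.7, 53.3, 61.4 and 65.6 CPM in Hq-mut and 68.4, 63.2, 70.8 and 62.1 CPM in Hq-WT, lower in every pair but the fourth, with a log2 fold change of -0.19 (SE 0.08, adjusted p = 0.623). The groups overlapped for each of them. Carriers higher in 4 of 4 pairs were Slc25a4, Slc25a5, Slc25a11, Slc25a12, Slc25a16, Slc25a33, Slc25a44 and Slc25a53, 8 of 40, against 11.9% of all genes.

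**Figure D3:**
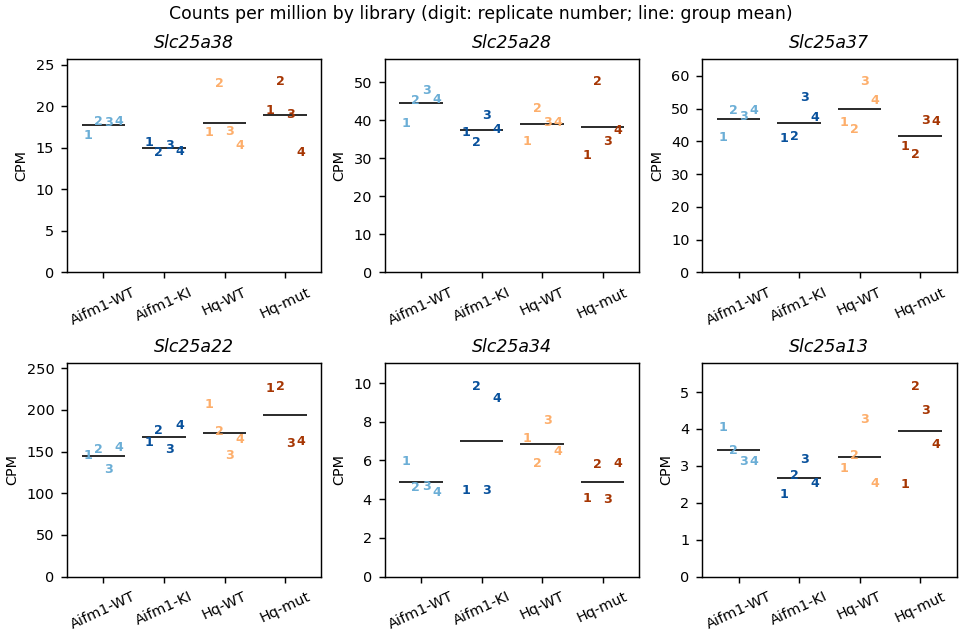
CPM of 6 Slc25 genes in each library, drawn as the replicate number, with the group mean as a line. Slc25a38 is lower in every Aifm1-KI library than in every Aifm1-WT library, Slc25a37 is lower in Hq-mut than in Hq-WT within each number, and the high Slc25a34 values in Aifm1-KI are libraries 2 and 4.

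By role, the Harlequin line also gave 0 called genes in every group. Of the 8 adenine nucleotide and phosphate carriers tested 6 were higher (median log2 fold change 0.05), and of the 11 amino acid and glutathione carriers 6 were higher and 5 lower (median 0.05). Of the 4 carboxylate and acylcarnitine carriers 1 was higher and 3 were lower, and the one that was higher was Slc25a11 (0.17, SE 0.07, adjusted p = 0.635). Of the 6 nucleotide and cofactor carriers 4 were higher (median 0.04). Both iron importers were lower (median -0.18), and 2 of the 3 uncoupling-protein-like genes were lower (median -0.19). Slc25a46 had a log2 fold change of -0.01 (SE 0.07). Without the pair numbered 2 the median of the amino acid and glutathione carriers was -0.01, with 5 of 11 higher, and without pair 3 that of the carboxylate and acylcarnitine carriers was 0.0081, with 2 of 4 higher. Without pair 4 the nucleotide and cofactor carriers had a median of -0.0028.

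The libraries numbered 2 of the Hq line stood apart for many carriers. Slc25a4 was at 861 CPM in Hq-mut 2 and at 523 to 536 CPM in the other Hq-mut libraries, and at 699.8 CPM in Hq-WT 2 against 504 to 527 CPM in the other Hq-WT libraries. Set against the mean of libraries 1, 3 and 4 of its group, Slc25a11 was higher by 0.77 (log2) in Hq-mut 2 and 0.54 in Hq-WT 2, Slc25a5 by 0.68 and 0.56, and Slc25a39 by 0.76 and 0.52. Of the 40 carriers 11 (27.5%) were higher by more than 0.2 in both libraries, as were 24.1% of all genes, so the share among carriers was close to that of all genes. Lower by more than 0.2 in both were Slc25a24 (-0.24 and -0.26), Slc25a37 (-0.27 and -0.25) and Slc25a36 (-0.35 and -0.39). Across the 40 carriers the mean of both differences had a Spearman correlation of -0.63 with exon length, and across 17965 genes -0.42. The genes share the 2 libraries, so these are descriptions of those libraries. The part of transcript length or RNA quality in this pattern was not tested.

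Since the pair is a block in the fit, a shift common to both libraries leaves the Hq comparison unchanged, but it does not cancel where it is larger in Hq-mut 2. The number of carriers at an unadjusted p under 0.05, 6 with all pairs, was 9 without this pair, 1 without pair 1, 1 without pair 3 and 6 without pair 4. It was also 1 with no replicate block, 1 with the striatal covariate and 2 with DESeq2, and 0 carriers were called in each of these fits. Over all genes the number was 1433 of 17969 with all pairs and 2693 of 18117 without the pair numbered 2. It was 764 of 18145 without pair 1, 869 of 18066 without pair 3 and 1191 of 17873 without pair 4. With no replicate block, the striatal covariate and DESeq2 it was 385, 1050 and 755 of 17969. Without the pair numbered 2 the smallest p belonged to Slc25a18, with a log2 fold change of -0.39 (adjusted p = 0.123), against -0.15 (SE 0.16) with all pairs. It was at 36.3, 67.1, 51.1 and 49.5 CPM in Hq-mut and 49.0, 43.7, 67.5 and 60.1 CPM in Hq-WT, so the pair numbered 2 went the other way from the other 3. Without the same pair the value of Slc25a33, a pyrimidine nucleotide carrier, moved from 0.27 (SE 0.12) to 0.13 (SE 0.08), and that of Slc25a4 from 0.08 (SE 0.07) to 0.02 (SE 0.05). Slc25a34 moved from -0.51 to -0.66 (SE 0.19) and Slc25a5 from 0.18 to 0.15 (SE 0.07).

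**Figure D4:**
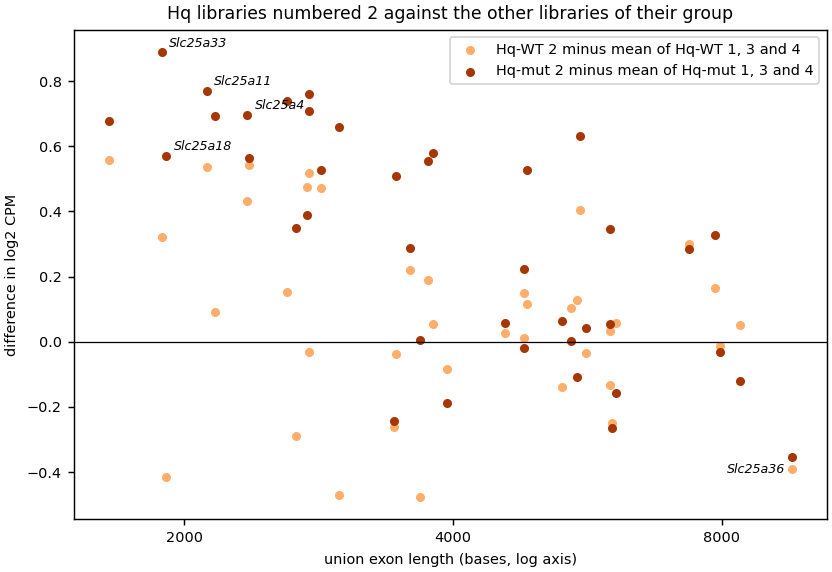
Difference in log2 CPM between the Hq library numbered 2 and the mean of the other 3 libraries of its group for 39 Slc25 genes tested, against exon length on a log axis, with Hq-mut and Hq-WT in separate colours. Points of short genes lie mostly above 0 in both, such as Slc25a11 at 0.77 in Hq-mut 2, and Slc25a36, the longest, lies at -0.35.

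Whether the carriers responded differently to the 2 alleles was tested as the difference of the Hq effect and the knock-in effect over all 16 libraries. This fit used group means and did not keep the Hq pairs as a block. No carrier of 41 tested was called, against 0.0105% of 19129 genes, and DESeq2 and limma-voom called 0 carriers. At an unadjusted p under 0.05 there was 1 carrier, Slc25a34, against 5.08% of all genes. Its difference (Hq effect minus knock-in effect) was -1.05 on the log2 scale (SE 0.35, 95% interval -1.79 to -0.32, adjusted p = 0.944), and it takes in the 2 knock-in libraries with high striatal markers. The number at an unadjusted p under 0.05 was 1 to 5 when 1 library was left out, 3 without Aifm1-KI 3, Hq-mut 1 or Hq-mut 4 and 5 without Hq-WT 2. It was 2 without Aifm1-WT 2, Hq-WT 3, Hq-mut 2 or Hq-mut 3. Over all genes the number, 972 with all libraries, was 550 to 1684 when 1 library was left out and 1436 of 19582 without Hq-WT 2. With the replicate number as a block, 7 of 41 carriers and 2081 of 19129 genes were at an unadjusted p under 0.05. No carrier was called in that fit. In the fit without a block, Slc25a33 came next by p with 0.53 (SE 0.25, adjusted p = 0.946). It was at 0.27 (SE 0.17) without Hq-mut 2. That fit kept Hq-WT 2, the highest Hq-WT library for this gene (27.2 CPM, others 20.5 to 22.8). Slc25a13 followed with 0.62 (SE 0.31), Slc25a30 with -0.24 (SE 0.14) and Slc25a44 with 0.23 (SE 0.14). Without the block the interval lay within 1.5-fold for 24 of 41 carriers and 38.3% of all genes, again not matched for level. The intervals of the other 17 carriers reach past it.

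The wild types of the 2 lines, Hq-WT against Aifm1-WT, give the variation between the lines without a mutant allele, and the labels do not say whether the lines were handled together, so stock and handling cannot be told apart. No carrier was called, against 0.558% of 18106 genes tested, and DESeq2 and limma-voom called 0 carriers. At an unadjusted p under 0.05 there were 3 of 40, Slc25a34, Slc25a46 and Slc25a22, against 12.7% of all genes. This number was 1 without Aifm1-WT 3 or without Hq-WT 1 and 5 without Hq-WT 2. Over all genes it was 2304 of 18106, and 1498 of 18428, 2118 of 18494 and 2726 of 18500 in those fits. No carrier had groups that did not overlap, where 7.28% of all genes had. Slc25a34 was at 5.86 to 8.04 CPM in Hq-WT and 4.36 to 5.94 CPM in Aifm1-WT, with a log2 fold change of 0.48 (SE 0.16, adjusted p = 0.230). Slc25a46 was at 104.7 to 125.8 CPM in Hq-WT and 99.9 to 106.4 CPM in Aifm1-WT, with a log2 fold change of 0.17 (SE 0.07, adjusted p = 0.341). Slc25a22 had 0.25 (SE 0.10), Slc25a28 -0.19 (SE 0.09) and Slc25a26 -0.20 (SE 0.10), and none of these was called.

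Several carriers come in isoform pairs encoded by separate genes, and the ratio of 2 such genes within a library does not depend on its scaling. Slc25a4 stood to Slc25a5, per kilobase, as 7.52 ± 0.25 in Aifm1-KI, 7.16 ± 0.29 in Aifm1-WT, 6.77 ± 0.35 in Hq-mut and 7.25 ± 0.47 in Hq-WT (SD, n = 4 each). The groups overlapped in both lines, and the pseudogene copies of Slc25a5 may make the ratio an upper estimate. Slc25a12 exceeded Slc25a13 by a factor of 16.4 to 33.8 over all libraries. The glutamate carriers Slc25a22 and Slc25a18 were close to equal per kilobase, with ratios of 0.687 to 1.98, the highest in Hq-mut 1.

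Among the ratios examined, that of the iron importers was the only one without overlap in the knock-in line. Of single genes, 4.87% did not overlap in this line and 6.88% were lower in 4 of 4 Hq pairs. No such share was computed for ratios, so these ratios have no background to be read against. Slc25a28 had been picked for a small p in the knock-in line and Slc25a37 in the Hq line. Slc25a37 to Slc25a28 was 0.689, 0.755, 0.802 and 0.784 in Aifm1-KI and 0.653, 0.680, 0.621 and 0.676 in Aifm1-WT. Neither gene was called, and no test was run on the ratio. In the Hq line the same ratio was 0.778, 0.449, 0.837 and 0.768 in Hq-mut and 0.831, 0.632, 0.917 and 0.826 in Hq-WT, lower in 4 of 4 pairs, and the difference between the lines was not tested. The ratio of Slc25a23 to Slc25a25, 2 calcium-regulated ATP-Mg/phosphate carriers, was 8.55, 7.65, 8.47 and 10.7 in Hq-mut and 10.5, 8.79, 11.3 and 10.8 in Hq-WT, also lower in 4 of 4 pairs. In the knock-in line it overlapped, at 9.16 to 11.3 in Aifm1-KI and 8.90 to 12.03 in Aifm1-WT. The ratio of Slc25a27 to Slc25a14 overlapped in both lines.

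**Figure D5:**
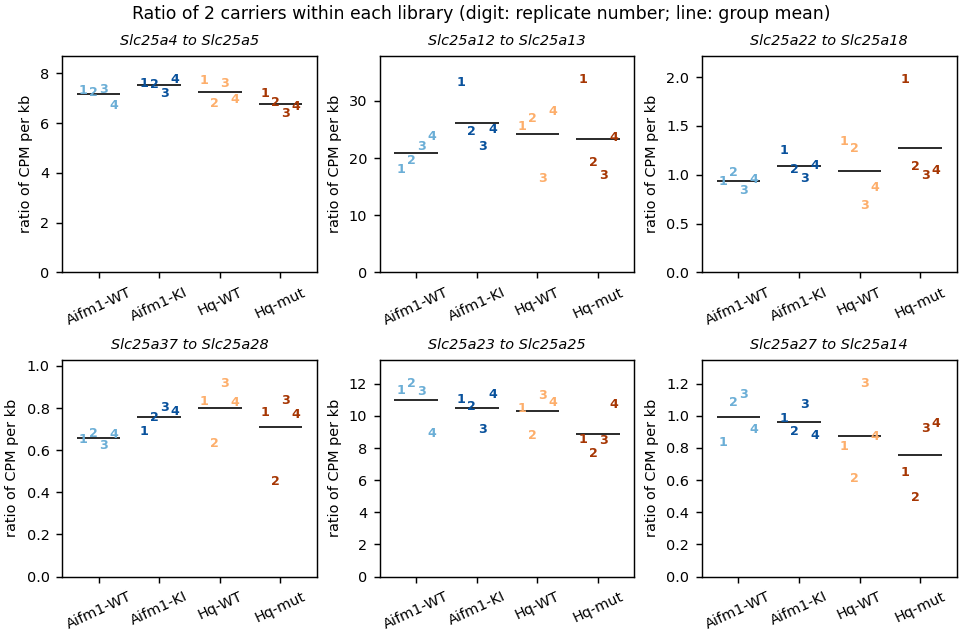
Ratio of the per-kilobase levels of 2 Slc25 genes within each library, drawn as the replicate number, with the group mean as a line, for 6 gene pairs. Slc25a37 to Slc25a28 lies at 0.689 to 0.802 in Aifm1-KI and 0.621 to 0.680 in Aifm1-WT.

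Genes that work beside the carriers were tested in the same fits. The other proteins of the carrier fold are the uncoupling proteins Ucp1, Ucp2 and Ucp3 and the outer membrane proteins Mtch1 and Mtch2, and 4 of 5 were tested. None was called in any comparison. Mtch1, the most abundant, had a log2 fold change of 0.10 (SE 0.08) in the knock-in line and 0.07 (SE 0.07) in the Hq line. Ucp3 had -0.39 (SE 0.21, adjusted p = 0.664) in the Hq line. Ucp1, the uncoupling protein of brown fat, did not exceed 0.178 CPM in any library and was not tested.

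Carriers reach the inner membrane through the receptor Tomm70a, the small Tim chaperones of the intermembrane space and the Timm22 translocase. All 13 genes of this import list were tested, and 0 were called in any comparison. In the Hq line 11 of 13 were higher (median log2 fold change 0.10, against 0.0060 over all genes), with the smallest p for Tomm20 (0.14, SE 0.06, adjusted p = 0.641). Hq-mut 2 stood apart for several of them: Timm13 was at 69.9 CPM there and at 25.4 to 27.1 CPM in the other Hq-mut libraries, and Timm8b at 79.4 against 31.0 to 38.6 CPM. Without the pair numbered 2, 7 of 13 were higher and the median was 0.02. In the knock-in line 5 were higher and 8 lower (median -0.03), with the smallest p for Tomm70a (0.19, SE 0.08, adjusted p = 0.425). In the difference of effects 11 of 13 were higher (median 0.07) and the smallest unadjusted p was 0.392. Without Hq-mut 2 the direction turned, with 2 of 13 higher (median -0.07). That fit has no block and kept Hq-WT 2, where Timm13 (44.8 CPM, other Hq-WT libraries 25.4 to 26.6) and Timm8b (55.2 CPM, others 30.4 to 38.0) were also high. It splits a same-numbered pair, so the turn does not show the direction without the pair. The difference was not fitted without both libraries.

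Of 10 other genes for transport of metabolites across the mitochondrial membranes, the pyruvate carrier subunits, the sideroflexins and the porins, 0 were called. Vdac1, the main porin, had 0.17 in the Hq line (SE 0.06, adjusted p = 0.601), and Sfxn5 -0.14 in the knock-in line (SE 0.06, adjusted p = 0.429). Between the wild types Sfxn2 had -0.70 (SE 0.18, adjusted p = 0.144) and, of the import list, Timm8a1 had 0.67 (SE 0.27, adjusted p = 0.326).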

How the data were processed

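RNA of mouse cortex was sequenced as 16 libraries in 4 groups of 4, with 51-base single-end reads of an mRNA library, per the labels' protocols and the series' design text. The authors deposited 1 table of raw read counts, whole numbers for each Ensembl gene, made with STAR 2.6 on mm10 and HTSeq, per the submitters' processing notes; which annotation and strand option HTSeq used is not given in the sources used here. Symbols, positions and lengths came from GENCODE M21 on GRCm38, which is mm10 (55480 of 55573 IDs matched).

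Each comparison was fitted on the whole table with edgeR 4.0.16 in R 4.3.3 (TMM factors, filterByExpr with its default minimum count of 10, quasi-likelihood test). Genes were called where the p adjusted by Benjamini-Hochberg was under 0.05. Standard errors were derived from the log2 fold change and its F statistic. The scripts were tested on simulated data. Same-numbered Hq libraries deviated together (correlations of 0.431, 0.534, 0.408 and 0.453), as a check from the data, and the Hq fit keeps the number as a block; those of the Aifm1 line did not (-0.0248 to 0.0989), and the other fits have no block. The chi-square per gene was 3.23 to 85.1 over the 24 pairs of libraries within groups and 3.12 to 133.0 over the 96 pairs between groups. Alternatives used DESeq2 1.42.0 and limma 3.58.1, other scaling and filters, libraries left out and a covariate. Windows of 51 bases were matched to all M21 transcripts on both strands, and only matches on the same strand count as shared.

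Named with library values are carriers called in a comparison, the 5 with the smallest p in each, and the 5 with the highest level per kilobase; of each role group 1 to 4 members with the highest CPM, and of the lists of related genes the member with the smallest p. Members and lists were chosen with earlier results of these data known. For 1 carrier that was tested with the others, results of its own are not reported here and it is not drawn in the figures.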

Additional observations from a re-analysis of the deposited data

Results flagged for a closer look

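Of 76 sets of 4 libraries examined for the carriers chosen by p or level, 11 held 1 library far from the other 3 of its group, where chance gives about 1 in 20. Of these, 8 are in Hq libraries numbered 2. In Hq-mut 2 these were Slc25a4 at 861.3 CPM (others 523.3 to 536.2), Slc25a3 at 439.3 CPM (others 278.8 to 286.5), Slc25a11 at 115.9 CPM (others 65.9 to 71.8), Slc25a5 at 88.2 CPM (others 52.0 to 57.4) and Slc25a33 at 44.7 CPM (others 23.1 to 25.4). In Hq-WT 2 these were Slc25a4 at 699.8 CPM (others 504.4 to 526.8), Slc25a3 at 379.0 CPM (others 276.5 to 293.3) and Slc25a11 at 89.9 CPM (others 60.6 to 64.4).

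The remaining 3 were low values. Slc25a23 was at 388.6 CPM in Hq-mut 1 (others 427.7 to 434.0), Slc25a38 at 16.5 CPM in Aifm1-WT 1 (others 18.0 to 18.2) and Slc25a46 at 99.9 CPM in Aifm1-WT 3 (others 105.7 to 106.4). The carriers share libraries, so these counts are not independent of each other.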

How the results depend on the processing

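No carrier was called in any of 60 alternative fits over the 4 comparisons. The 20 comparisons of carriers chosen for a small p had a lowest adjusted p of 0.0987 (Slc25a28 without Aifm1-KI 3). They kept their direction in all 300 alternative values. The alternatives refit the same libraries from which these comparisons were chosen, so the choice itself favoured a kept direction. Slc25a34 in the knock-in line, not among these 20, turned direction in 2 of 16 fits. In 1 of them the 2 libraries with its highest values, Aifm1-KI 2 and 4, were left out, and the other held the striatal marker level. The cause was not tested. The number of genes called over the whole table moved more. For Aifm1-KI it was 0, and 82 with DESeq2, 1 with the striatal covariate and 0 to 46 when 1 library was left out, with 46 without Aifm1-KI 3. For Hq-mut it was 3, and 368 without the filter on low counts, 32 with DESeq2, 1 with the striatal covariate and 1 to 4 without 1 pair. For the difference of effects it was 2, and 5 with DESeq2, 1 with limma-voom and 1 to 2 without 1 library. For the wild types it was 101, and 560 without the filter, 421 with DESeq2 and 32 to 231 without 1 library. The cause of these moves was not tested.

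With the replicate number as a block the counts of called genes were 0 for Aifm1-KI, 2 for the difference and 99 for the wild types, and with no replicate block 3 for Hq-mut. The block called no carrier. In the difference of effects, 7 carriers had an unadjusted p under 0.05 with the block and 1 without it. Over all 19129 genes these numbers were 2081 and 972.

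The carriers' summed level in Aifm1-KI was 2753 CPM on library totals. Per kilobase of longest transcript the levels were 278.0 for Slc25a4, 133.0 for Slc25a23, 72.1 for Slc25a3, 40.5 for Slc25a11 and 42.4 for Slc25a5. With no filter all 47 carriers were tested in the 4 comparisons and 0 were called, the low ones with counts of 0 to 13 per library included. The number of carriers at an unadjusted p under 0.05 ranged over the alternatives from 0 to 8 for Aifm1-KI, 1 to 9 for Hq-mut, 1 to 7 for the difference and 1 to 5 for the wild types. Over all genes it ranged from 811 to 3860 for Aifm1-KI and 385 to 2693 for Hq-mut. For the difference it was 550 to 2081 and for the wild types 1475 to 3597.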
